A study of Mus musculus with 6 samples.

Results

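NF-kappaB is a family of transcription factors built from 5 subunits, and it is held in check by inhibitor proteins that bind the subunits or shut down the signals that free them. The genes described here are the 5 subunit genes Nfkb1, Nfkb2, Rel, Rela and Relb, and 5 genes of inhibitors and IkB-like regulators, Nfkbia, Nfkbie, Nfkbiz, Bcl3 and Tnfaip3. They were taken by name, through the Ensembl identifiers of the count table, and make 10 of its 38887 identifiers. All 10 were among the 12259 genes with enough counts to be tested. The rule that picks them uses names only, although the set was chosen with earlier results of these data known.

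RNA was sequenced from bone marrow (BM) cells that had been selected with beads against Ly6G, a surface protein of mouse neutrophils. The 3 groups were naive mice, mice bearing LL2 tumors for 1 week and mice bearing LL2 tumors for 3 weeks. Each group had 2 libraries, which the labels number as replicates 1 and 2. LL2 is a Lewis lung carcinoma line, which carried luciferase here and was injected into a vein to give tumors in the lung. The study asked how BM neutrophils of early and advanced lung cancer differ. All groups share the Ly6G selection and the total RNA library kit. The labels name no strain, sex or age. The methods list C57BL/6N CD45.1+ mice of both sexes and female C57BL/6 CD45.2+ mice, bought at 6 to 8 weeks of age, without tying either to these libraries. The naive mice are described only as naive, so that the injection itself and the tumor cannot be told apart. Cells were taken with the whole Ly6G+ fraction, which holds neutrophils of different ages, and nothing in the labels says whether a library came from 1 mouse or from pooled mice.

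In resting cells the subunits sit in the cytoplasm as pairs bound by IkB proteins. Signals from receptors for tumor necrosis factor, interleukin-1 and bacterial products activate the IkB kinase, the IkB proteins are destroyed, and the freed pairs enter the nucleus and bind kappaB sites in DNA. Several inhibitor genes are themselves switched on by NF-kappaB, which makes their RNA part of a negative feedback loop, and in neutrophils the pathway is known for prolonging survival and for driving cytokine production.

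Of the 5 subunits, only Rel was called in any of the 3 comparisons with TMM scaling, and scaling by library size also called Relb, lower at 3 weeks than at 1 week. Rel RNA was lower in both groups of LL2 mice than in naive mice. Nfkbia RNA was lower at 1 week than in naive mice. These differences of Rel and Nfkbia rest on the higher naive library and were smaller without it. Bcl3 RNA was higher at 3 weeks than in naive mice and than at 1 week, and Nfkbia and Nfkbiz RNA were higher, and Nfkbie RNA lower, at 3 weeks than at 1 week. These 4 differences between the weeks stand in a comparison in which 22.5% of all tested genes were called. Against naive mice the share of all tested genes called was 7.99% at 1 week and 21.4% at 3 weeks.

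The DNA just upstream of these genes is shown first, because NF-kappaB is known to act on its own regulators. RefSeq start sites on GRCm38.p6 were listed for 7 of the 10 genes, with 10 start sites between them. Nfkb1, Relb and Nfkbiz had no entry. The 250 bases before each start were searched on both strands for the kappaB consensus, a degenerate motif of 10 letters. Matches that overlapped were merged. The windows of 4 genes are printed 5′ to 3′ on the gene's own strand, with the stretches that match in capitals. Nfkbia, Rel and Nfkbie are shown because their RNA differed between groups and their windows hold a match, and Bcl3 because its RNA differed most and its window holds none.
Nfkbia (minus strand, chr12:55492648-55492897): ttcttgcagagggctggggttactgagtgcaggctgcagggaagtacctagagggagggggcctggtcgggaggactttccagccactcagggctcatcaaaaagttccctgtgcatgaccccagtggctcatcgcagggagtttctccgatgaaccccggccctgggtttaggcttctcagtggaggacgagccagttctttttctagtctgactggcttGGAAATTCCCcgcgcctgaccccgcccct
Rel (minus strand, chr11:23770970-23771219): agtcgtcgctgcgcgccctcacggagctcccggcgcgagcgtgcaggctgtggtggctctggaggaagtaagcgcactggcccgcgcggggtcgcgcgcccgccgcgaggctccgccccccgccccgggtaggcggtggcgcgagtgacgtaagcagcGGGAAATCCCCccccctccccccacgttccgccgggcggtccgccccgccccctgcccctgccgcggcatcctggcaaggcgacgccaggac
Nfkbie (plus strand, chr17:45555450-45555699): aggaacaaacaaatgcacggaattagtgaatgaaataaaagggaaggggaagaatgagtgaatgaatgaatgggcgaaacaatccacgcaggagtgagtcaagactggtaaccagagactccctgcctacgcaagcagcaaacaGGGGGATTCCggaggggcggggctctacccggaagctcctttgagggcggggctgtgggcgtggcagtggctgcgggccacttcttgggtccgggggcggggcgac
Bcl3 (minus strand, chr7:19822756-19823005): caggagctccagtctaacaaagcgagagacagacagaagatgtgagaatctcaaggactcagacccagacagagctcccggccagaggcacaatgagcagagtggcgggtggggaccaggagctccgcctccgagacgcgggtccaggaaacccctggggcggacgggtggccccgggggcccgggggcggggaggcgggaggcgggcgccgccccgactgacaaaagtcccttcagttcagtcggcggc

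In Nfkbia the match, GGAAATTCCC, lay 29 to 20 bases before the start. The Rel window held the stretch GGGAAATCCCC at 92 to 82 bases before the start, where 2 overlapping matches merge, and the Nfkbie window held GGGGGATTCC at 106 to 97 bases. Matches were also present in windows that are not printed in full. At the Nfkb2 start sites they read GGGAATTCCCC and GGGGCTTTCC (the start numbered 1), GGAATGTCCC (2) and GGGACTTTCC (3). At the start of Tnfaip3 numbered 1 they read GGGACACCCC and GGAAATCCCC. The windows of Rela and Bcl3 and the other start of Tnfaip3 held no match, which says only that these letters are not in those 250 bases. Of the 7 genes, 5 (71.4%) had a match in some window, against 1204 of all 27025 genes with an entry (4.46%) and 10 of 29 genes (34.5%) in a list of known NF-kappaB targets. A match is a description of the sequence, and binding was not measured in this series.

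**Figure D1:**
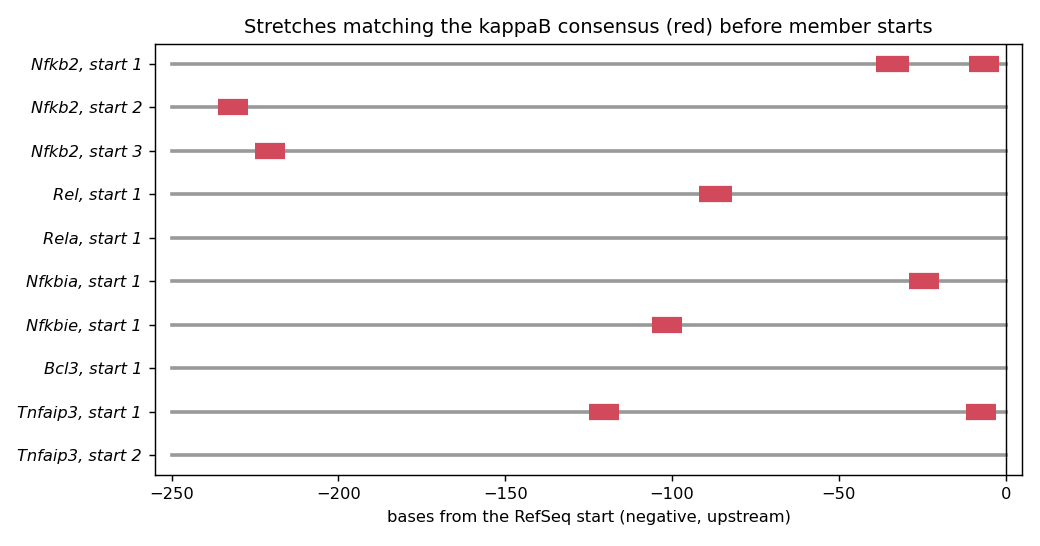
The horizontal axis gives bases from the RefSeq start site, with upstream negative, for each of the 10 start sites of 7 genes, and red boxes are stretches that match the kappaB consensus. Matches lie in 7 of the 10 windows and in none for Rela, Bcl3 or the other Tnfaip3 start.

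The libraries held between 11994158 and 14127919 counts, so that 3 counts, taken as the floor of detection, corresponded to between 0.2 and 0.245 CPM. CPM, the unit of all levels given here, are counts scaled to a common library total, with TMM factors between libraries. The floor covers counting error only, since reads copied by PCR are not independent molecules. Libraries of a group differed by more than counting noise, as a chi-square of 8.83 to 11.8 per degree of freedom shows, and none was a duplicate of another. Neutrophil markers summed to between 284510 and 348331 CPM in every library. Most of this sum came from S100a8 and S100a9, with means of 177620 and 68200 CPM in naive mice. Ly6g, also in the list, had means of only 0.799, 1.70 and 1.08 CPM in naive, 1-week and 3-week mice. Within that list of 11, 2 were higher (Retnlg and Cxcr2) and 3 lower (Ngp, Ltf and Camp) at 3 weeks than in naive mice, with Camp 2.05-fold lower. Other lists moved with the groups. The summed level of 8 B-lineage markers was 44.0 to 52.9 CPM in naive mice, 42.4 to 52.6 CPM at 1 week and 12.1 to 13.6 CPM at 3 weeks, and 8 of 8 were lower at 3 weeks in both comparisons. The summed level of 7 early granulocyte precursor markers was 239 to 276 CPM in naive mice. It was 191 to 258 CPM at 1 week and 342 to 449 CPM at 3 weeks. In both comparisons 5 were higher and 2, Top2a and Mki67, lower at 3 weeks. Against naive mice the 5 were from 2.54-fold (Ms4a3) to 9.37-fold (Prtn3) higher. Top2a made most of the naive sum, with means of 163, 108 and 64.8 CPM in naive, 1-week and 3-week mice. Markers of basophils, eosinophils and mast cells were at 34.4 to 36.6, 79.8 to 88.2 and 15.7 to 21.7 CPM in the same order, and all 4 of the tested ones were higher at 1 week than in naive mice. Megakaryocyte and platelet markers were at 196 to 206, 165 to 189 and 134 to 154 CPM, with 3 of 6 lower at 3 weeks than in naive mice. T and NK cell markers were at 5.56 to 6.72, 6.27 to 14.4 and 9.38 to 9.84 CPM, with Trac at 0 throughout. Of the 3 tested ones, Nkg7 was 3.02-fold higher at 3 weeks than in naive mice (adjusted p = 0.0115, edgeR). Klrb1c and Cd4 went the other way without being called (log2 fold changes -1.94 and -0.21). Monocyte and macrophage markers were at 926 to 1051, 1017 to 1086 and 964 to 1039 CPM, mostly from Ly6c2 (means of 658, 773 and 672 CPM). Of the 8, F13a1 was 5.24-fold higher and Cx3cr1 3.01-fold lower at 3 weeks than in naive mice. Against 1 week, F13a1 was higher, and Adgre1 and Cx3cr1 were lower. Erythroid markers were at 653 to 733, 779 to 831 and 328 to 779 CPM. Among them Car2 was lower at 3 weeks in both comparisons, and Hba-a1 against 1 week. The part of these shifts in the results on NF-kappaB genes was not tested. In bulk RNA, fewer cells of a type and less RNA per cell cannot be told apart.

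To compare the genes with each other, levels were divided by the length of each gene's exons in kilobases. Nfkbia, which encodes IkB-alpha, the inhibitor that is destroyed first upon a signal, had the highest level per kilobase in every group, at 377 ± 102 CPM per kilobase in naive mice, 233 ± 33.3 after 1 week of tumor and 451 ± 62.0 after 3 weeks (SD, n = 2). Next came Nfkbiz with 59.5 ± 2.36, 53.1 ± 1.5 and 70.5 ± 6.67 CPM per kilobase, and Rela with 49.4 ± 6.46, 46.2 ± 0.0995 and 48.9 ± 1.30. The libraries of Nfkbiz lay above those of Rela in each group. That order of the leading 3 genes was the same when the longest transcript was used as the length.

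Bcl3 and Relb followed, and their order depended on the group. In naive mice Bcl3 stood at 10.6 ± 0.782 and Relb at 7.37 ± 0.923 CPM per kilobase. At 1 week Relb was above, with 9.45 ± 0.739 against 6.61 ± 1.08, and at 3 weeks Bcl3 was above, with 23.1 ± 6.97 against 7.68 ± 1.25. The other 5 genes lay below 3 CPM per kilobase in every group mean, from 2.75 ± 0.0150 for Nfkb1 at 3 weeks down to 0.589 ± 0.0645 for Tnfaip3 in naive mice. Among Nfkbie, Rel and Nfkb2 the naive levels of neighbours overlapped between libraries, and their order changed with the length that was used. Nfkb1 is the gene most affected by that choice, since its level at 3 weeks was 8.01 CPM per kilobase of its longest transcript.

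**Figure D2:**
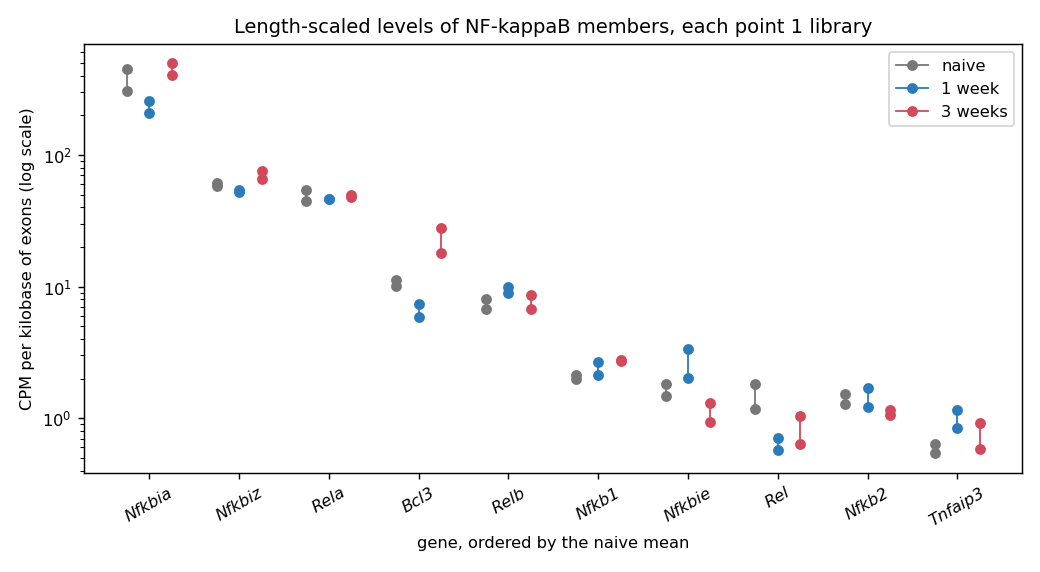
The vertical axis gives CPM per kilobase of exons on a log scale, for each of the 10 genes along the horizontal axis, and each point is a library, with a line joining the 2 libraries of a group (grey naive, blue 1 week, red 3 weeks). Nfkbia is at the top in every library, and Bcl3 lies above Relb in naive and 3-week libraries and below it in 1-week libraries.

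Rel encodes c-Rel, a subunit with an activation domain that is best known from lymphocytes and myeloid cells (ENSMUSG00000020275, chromosome 11, 23736847 to 23770970 of GRCm38, minus strand). Its level was 13.7 and 8.83 CPM in the naive libraries, 4.27 and 5.29 CPM in the 1-week libraries and 4.73 and 7.76 CPM in the 3-week libraries. Both naive libraries lay above all 4 libraries of LL2 mice, whose 1-week and 3-week values overlapped. Between 61 and 173 counts per library stand behind these values. Rel RNA was 2.36-fold lower at 1 week than in naive mice (log2 fold change -1.24, SE 0.282, adjusted p = 0.0183, edgeR's quasi-likelihood test) and 1.8-fold lower at 3 weeks (log2 fold change -0.85, SE 0.277, adjusted p = 0.0438). The 2 comparisons share the naive libraries, and the higher naive library decides both calls. Without that library the log2 fold change was -0.89 at 1 week (adjusted p = 0.212) and -0.53 at 3 weeks (adjusted p = 0.337, edgeR). Leaving out either 1-week library also ended the call at 1 week (adjusted p = 0.131 and 0.0595, edgeR), as did leaving out the lower 3-week library at 3 weeks (log2 fold change -0.53, adjusted p = 0.268). DESeq2 on all libraries gave an adjusted p of 0.0649 for the difference at 3 weeks. Of the 8 B-lineage markers, edgeR called 0 at 1 week against naive mice, with 0 at an unadjusted p under 0.05, and 8 lower at 3 weeks, with a median log2 fold change of -2.31. Their part in the level of Rel RNA was not tested.

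Rela encodes p65, the main activating subunit of the canonical pathway (ENSMUSG00000024927, chromosome 19, 5637483 to 5648130, plus strand). Its level was 138 and 166 CPM in naive mice, 142 in each 1-week library, and 147 and 153 CPM at 3 weeks. The 4 libraries of LL2 mice lay within the range of the naive pair. Log2 fold changes were -0.10 (SE 0.12) at 1 week and -0.02 (SE 0.12) at 3 weeks against naive mice, with adjusted p of 0.691 and 0.95 in edgeR. Of the 5 subunits, Rela had the smallest difference from naive mice at 3 weeks, well within its SE.

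Nfkb1 encodes p105, the precursor of the DNA-binding subunit p50 (ENSMUSG00000028163, chromosome 3, 135584655 to 135691547, minus strand). Its level was 25.6 and 24.0 CPM in naive mice, 32.3 and 25.8 CPM at 1 week, and 33.1 and 33.3 CPM at 3 weeks. The libraries of naive and 3-week mice did not overlap. The difference between them, a log2 fold change of 0.42 (SE 0.145), missed the threshold with an adjusted p of 0.0552 in edgeR, and its value in the other 2 comparisons was 0.23 at 1 week against naive mice and 0.19 at 3 weeks against 1 week.

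Nfkb2 encodes p100, which holds back Relb until it is cut to p52, and Relb is its partner in the noncanonical pathway. Nfkb2 (ENSMUSG00000025225, chromosome 19, 46304320 to 46312385, plus strand) stood at 7.04 and 5.89 CPM in naive mice, 5.60 and 7.75 CPM at 1 week, and 5.27 and 4.84 CPM at 3 weeks. On the other strand it shares 531 exon bases with AC114539.1, which is not among the counted genes. It shares 299 with Psd, which had at most 1 count in any library. Whether reads were counted by strand is not given. Relb (ENSMUSG00000002983, chromosome 7, 19606217 to 19629438, minus strand) stood at 26.1 and 31.2 CPM in naive mice, 34.7 and 38.7 CPM at 1 week, and 26.4 and 33.3 CPM at 3 weeks. Neither gene passed the test in any comparison. The 1-week libraries of Relb lay above those of both other groups, with log2 fold changes of 0.36 (SE 0.153, adjusted p = 0.175) for 1 week against naive mice and -0.30 (SE 0.152, adjusted p = 0.184) for 3 weeks against 1 week in edgeR.

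Nfkbia encodes IkB-alpha, whose RNA is a textbook target of NF-kappaB (ENSMUSG00000021025, chromosome 12, 55489410 to 55492647, minus strand). Its level was 723 and 491 CPM in naive mice, 337 and 413 CPM at 1 week, and 656 and 797 CPM at 3 weeks. The 1-week libraries lay below all others, and the naive and 3-week libraries overlapped. Nfkbia RNA was 1.62-fold lower at 1 week than in naive mice (log2 fold change -0.69, SE 0.171, adjusted p = 0.0262, edgeR). At 3 weeks it was 1.93-fold higher than at 1 week (log2 fold change 0.95, SE 0.172, adjusted p = 0.0015). Against naive mice the value at 3 weeks was 0.26 (SE 0.17, adjusted p = 0.319, edgeR). The difference at 1 week rests on the higher naive library, without which it was -0.39 (adjusted p = 0.257), and it was not called without either 1-week library (adjusted p = 0.204 and 0.0587, edgeR). The call was also lost with scaling by library size (adjusted p = 0.0514, edgeR) and with DESeq2 on these groups alone (adjusted p = 0.18), and it held in 9 of 14 settings. The difference between the weeks was called in 14 of 14 alternative settings, with a log2 fold change between 0.75 and 1.1.

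Bcl3 encodes an IkB-like protein of the nucleus that joins p50 and p52 at DNA and can raise or lower transcription there (ENSMUSG00000053175, chromosome 7, 19808462 to 19822770, minus strand). Its level was 24.8 and 27.6 CPM in naive mice, 14.5 and 18.2 CPM at 1 week, and 69.3 and 44.9 CPM at 3 weeks. No 2 groups overlapped, with the 1-week libraries lowest and the 3-week libraries highest. Bcl3 RNA was 2.18-fold higher at 3 weeks than in naive mice (log2 fold change 1.12, SE 0.19, adjusted p = 0.00103, edgeR) and 3.49-fold higher than at 1 week (log2 fold change 1.80, SE 0.196, adjusted p = 3.49e-05). Both differences were called in 14 of 14 alternative settings. The log2 fold change of -0.68 at 1 week against naive mice missed the threshold (SE 0.199, adjusted p = 0.0538, edgeR) and was past it in 8 of the 14 settings. The antisense gene Gm16174 overlaps Bcl3 without sharing exon bases. Its level was 6.56 and 7.52 CPM in naive mice and 3.33 and 4.61 CPM at 3 weeks, a difference of -0.82 on the log2 scale (adjusted p = 0.032, edgeR). Whether reads were counted by strand is not given in the sources used here, and Gm16175, which shares 161 exon bases with Bcl3 on the other strand, had 0 counts in all libraries.

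Nfkbie encodes IkB-epsilon, an inhibitor related to IkB-alpha (ENSMUSG00000023947, chromosome 17, 45555703 to 45563169, plus strand). Its level was 4.51 and 5.56 CPM in naive mice, 6.20 and 10.1 CPM at 1 week, and 2.87 and 4 CPM at 3 weeks, from between 37 and 136 counts. The order of the groups was the reverse of that of Bcl3. Nfkbie RNA was 2.37-fold lower at 3 weeks than at 1 week (log2 fold change -1.24, SE 0.298, adjusted p = 0.00923, edgeR). Without the higher 1-week library the value was -0.88 (adjusted p = 0.122), and without the lower 3-week library -1.01 (adjusted p = 0.0669, edgeR). Against naive mice the log2 fold changes were 0.69 at 1 week and -0.55 at 3 weeks, with adjusted p of 0.163 and 0.237 in edgeR.

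Nfkbiz encodes IkB-zeta, an IkB-like nuclear protein needed for some late NF-kappaB target genes (ENSMUSG00000035356, chromosome 16, 55811375 to 55838899, minus strand). Its level was 307 and 290.3 CPM in naive mice, 261 and 272 CPM at 1 week, and 330.3 and 378 CPM at 3 weeks. The groups were ordered as for Nfkbia, with no overlap. Nfkbiz RNA was 1.33-fold higher at 3 weeks than at 1 week (log2 fold change 0.41, SE 0.114, adjusted p = 0.0204, edgeR). With scaling by library size in place of TMM the value was 0.21 (adjusted p = 0.216). Without either 1-week library, or without the higher 3-week library, the call was also lost (adjusted p = 0.16, 0.12 and 0.135, edgeR).

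Tnfaip3 encodes A20, an enzyme that edits ubiquitin chains and ends signalling to the IkB kinase (ENSMUSG00000019850, chromosome 10, 19000910 to 19015657, minus strand). Its level was 4.59 and 3.93 CPM in naive mice, 6.07 and 8.34 CPM at 1 week, and 4.18 and 6.68 CPM at 3 weeks. The 1-week libraries lay above the naive libraries, and the 3-week libraries overlapped both. The log2 fold changes against naive mice were 0.75 (SE 0.286, adjusted p = 0.126) at 1 week and 0.35 (SE 0.293, adjusted p = 0.439) at 3 weeks in edgeR.

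**Figure D3:**
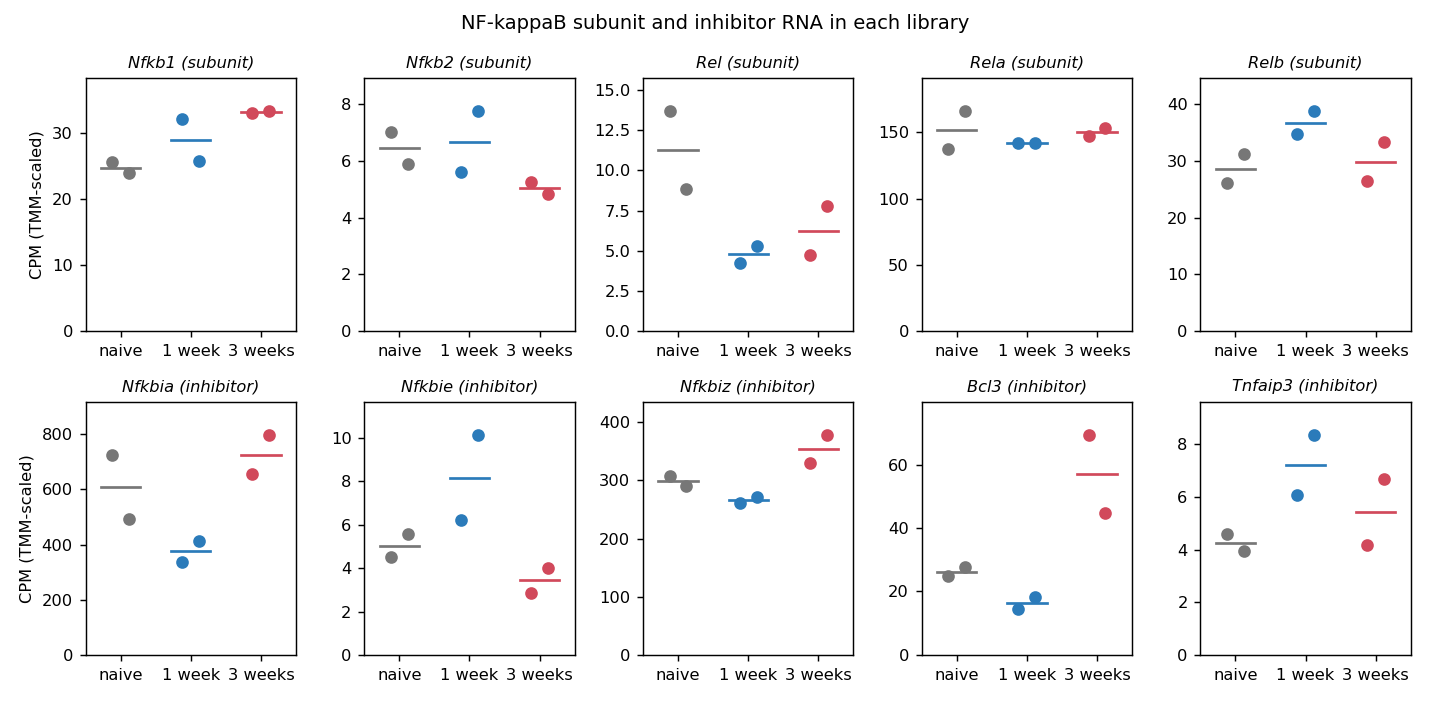
Each panel is a gene, with TMM-scaled CPM on the vertical axis from 0, a point for each library and a line at the mean of the 2 libraries of a group. Rel is highest in the naive libraries, Nfkbia, Nfkbiz and Bcl3 are lowest in the 1-week libraries, and Nfkbie is highest there.

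The counts of called genes are read against those of all tested genes. At 1 week against naive mice 2 of the 10 genes were called, both lower, where 7.99% of all tested genes were called with 4.23% higher and 3.76% lower. No overlap between the groups was seen in 8 of the 10 genes, and in 53.2% of all genes. The median log2 fold change of the 10 genes was -0.03, and that of all genes 0.01. At 3 weeks against naive mice 2 of the 10 were called, 1 in each direction, where 21.4% of all genes were called, 12% higher and 9.42% lower, and 6 did not overlap, against 59.6% of all genes. Their median was 0.15, and that of all genes 0.03. At 3 weeks against 1 week 4 of the 10 were called, 3 higher and 1 lower, where 22.5% of all genes were called, 12.9% higher and 9.57% lower. Libraries did not overlap in 8 of the 10, against 63.9% of all genes.

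By role, the numbers of called genes were equal against naive mice and unequal between the weeks. Of the 5 subunits, 1 was called at 1 week and 1 at 3 weeks against naive mice, which was Rel each time. Between the weeks 0 were called, and none had an unadjusted p under 0.05 in edgeR with TMM or was called by DESeq2. Of the 5 inhibitors and regulators, 1 was called at each time against naive mice and 4 between the weeks. There, 22.5% of all tested genes were called. With scaling by library size, Relb was called between the weeks and Nfkbiz was not. The median log2 fold change between the weeks was 0.08 for the subunits and 0.41 for the inhibitors and regulators, against -0.02 for all genes. Whether the roles differ was not tested. The summed level of the 5 inhibitor genes, which Nfkbia dominates, was 819 to 1064 CPM in naive mice, 625 to 722 CPM at 1 week and 1062 to 1229.85 CPM at 3 weeks. For the 5 subunits it was 210.0 to 236, 218 to 220 and 217 to 232 CPM.

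**Figure D4:**
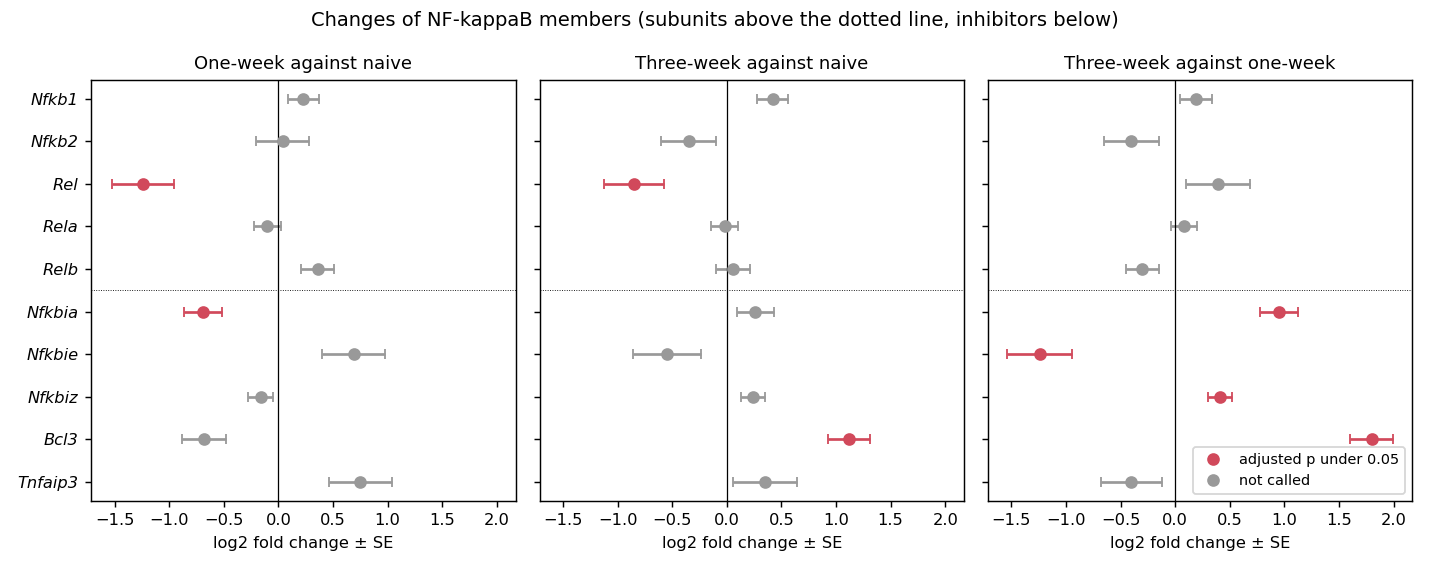
The horizontal axis gives the log2 fold change with its standard error in each of the 3 comparisons, subunits above the dotted line and inhibitors and regulators below it, with red for an adjusted p under 0.05. Rel is left of 0 in both comparisons with naive mice, and Bcl3 stands farthest right at 3 weeks, with 1.12 and 1.80.

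Levels were also set against Rela in the same library, which takes out the scaling between libraries. Per kilobase, Nfkbia RNA was 10 and 5.66 times Rela RNA in the naive libraries, 4.55 and 5.55 times in the 1-week libraries and 8.49 and 9.94 times in the 3-week libraries. The ratio overlapped between naive and 3-week libraries and was lower in both 1-week libraries than in either 3-week library. For Bcl3 the ratio was 0.224 and 0.206 in naive mice, 0.127 and 0.159 at 1 week and 0.584 and 0.364 at 3 weeks, again without overlap between groups. For Rel it was 0.0409 and 0.0219, then 0.0124 and 0.0153, and then 0.0132 and 0.0209, so that the lower naive library came close to the higher 3-week library. For Nfkbie it was 0.0330 and 0.0339, then 0.0442 and 0.0719, and then 0.0196 and 0.0264. These ratios show unequal change between a gene and Rela within a library.

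Across the 6 libraries the levels of Nfkbia and Nfkbiz went most closely together among all pairs of these genes (Pearson's r of log2 CPM 0.91, Spearman's rho 0.943). Nfkbie and Bcl3 went most in opposite directions (r -0.84, rho -0.886). Of 88 other genes of the pathway, Birc3, which encodes a ubiquitin ligase of the receptor complexes, was most like both Nfkbia (r 0.938) and Nfkbiz (r 0.953). Irak4, a kinase below the interleukin-1 and Toll-like receptors, was most like Bcl3 (r 0.987), and Bcl10 was most like Nfkb1 (r 0.956). The genes closest to Nfkbie and Tnfaip3 were Marcksl1 (r 0.944) and Map3k14 (r 0.876), and Map3k14 was also closest to Relb (r 0.839). For Nfkb2, Rel and Rela the best r was 0.786 (Nfkbid), 0.831 (Tnfaip2) and 0.861 (Irf1). These values describe 6 libraries in 3 groups, all from the same scaling, and the highest of 88 values is large by selection.

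The other genes of the pathway were taken as 5 lists. Their counts are to be read against the 7.99% of all tested genes called at 1 week against naive mice, 21.4% at 3 weeks and 22.5% from 1 week to 3 weeks, where the medians of all genes were 0.01, 0.03 and -0.02. Of 3 further IkB genes, Nfkbid, which encodes another nuclear IkB protein, was lower at 3 weeks than in naive mice (log2 fold change -0.88, SE 0.18, adjusted p = 0.00377, edgeR) and than at 1 week (-0.85, SE 0.18, adjusted p = 0.00418). Its level was 27.4 and 31 CPM in naive mice, 24.1 and 33.3 CPM at 1 week and 14.2 and 17.5 CPM at 3 weeks. Nfkbib and Nfkbil1 did not pass the test in any comparison.

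Of 11 kinase genes, 1 was lower and 0 higher at 1 week against naive mice, 3 were higher and 0 lower at 3 weeks, and 4 were higher and 0 lower between the weeks. These are 9.09%, 27.3% and 36.4% of the list, the former 2 near the shares of all genes. Their medians were 0.12, 0.22 and 0.16 on the log2 scale. Map3k8, whose kinase is held by p105 until a signal frees it, rose by a log2 fold change of 1.19 at 3 weeks against naive mice (SE 0.165, adjusted p = 0.000264, edgeR) and 0.90 against 1 week (adjusted p = 0.00141). Chuk, which encodes IKK-alpha, was 1.51-fold higher at 3 weeks than in naive mice (adjusted p = 0.0246, edgeR). Map3k7, which encodes TAK1, was 1.47-fold lower at 1 week than in naive mice (adjusted p = 0.021, edgeR).

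Of 20 tested regulators of ubiquitin signalling, 0 were higher and 1 lower at 1 week against naive mice, 2 were higher and 2 lower at 3 weeks, and 7 were higher and 0 lower between the weeks, with medians of -0.05, 0.15 and 0.17. These are 5%, 20% and 35% of the list, the former 2 below the shares of all genes. With scaling by library size the last count became 2 higher and 4 lower. Birc3 stood at 46.8 and 42.2 CPM in naive mice, 33.1 and 32.3 CPM at 1 week and 46.0 and 58.5 CPM at 3 weeks, and was 1.6-fold higher at 3 weeks than at 1 week (adjusted p = 0.00387, edgeR). Tank, which encodes an adaptor of the receptor complexes, was 1.45-fold lower at 1 week than in naive mice (adjusted p = 0.0331, edgeR). Traf3, which restrains the noncanonical pathway, was 1.56-fold lower at 3 weeks than in naive mice (adjusted p = 0.0111, edgeR).

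Among 23 tested receptors and adaptors, 0 were higher and 1 lower at 1 week against naive mice, 9 were higher and 2 lower at 3 weeks, and 10 were higher and 2 lower between the weeks, with medians of -0.11, 0.34 and 0.27. These are 4.35%, 47.8% and 52.2% of the list. Cd14, a co-receptor for bacterial lipopolysaccharide, stood at 24.7 and 25.4 CPM in naive mice and at 111 CPM in each 3-week library, a 4.41-fold difference (adjusted p = 1.24e-06, edgeR). Myd88, the adaptor of Toll-like and interleukin-1 receptors, was 2.04-fold higher (adjusted p = 4.23e-05), and Il1rap, a co-receptor of interleukin-1, 4.21-fold higher (adjusted p = 6.28e-05, edgeR). Il1r2, a decoy receptor for interleukin-1, was 1.96-fold higher (adjusted p = 0.00133, edgeR). Ripk1, which encodes a kinase of the receptor for tumor necrosis factor, was 1.81-fold lower at 1 week than in naive mice (adjusted p = 0.00456, edgeR).

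The 31 tested target genes moved in both directions. At 1 week against naive mice 0 were higher and 2 lower, at 3 weeks 5 were higher and 8 lower, and between the weeks 6 were higher and 7 lower, with medians of -0.04, -0.17 and 0.02. These are 6.45%, 41.9% and 41.9% of the list. Cxcl2, a chemokine that draws neutrophils, was 3.04-fold higher at 3 weeks than in naive mice (adjusted p = 0.000189, edgeR), and Ier3 1.88-fold higher (adjusted p = 0.00051). Il1rn, the antagonist of the interleukin-1 receptor, stood at 189 and 179 CPM in naive mice, 112 and 104 CPM at 1 week and 42.5 and 44.3 CPM at 3 weeks. It was 1.71-fold lower at 1 week (adjusted p = 0.00182, edgeR) and 4.25-fold lower at 3 weeks (adjusted p = 2.72e-07) than in naive mice. Nos2, the inducible nitric oxide synthase, had 0 counts in the naive and 1-week libraries and stood at 7.59 and 5.30 CPM at 3 weeks. Acod1, the enzyme that makes itaconate, was 2.05-fold lower at 1 week than in naive mice (adjusted p = 0.00175, edgeR) and 2.5-fold higher at 3 weeks than at 1 week (adjusted p = 4.51e-05). Of the 35 listed targets, Bcl2a1a and Bcl2a1d were not found by symbol among the counted genes. Il6 and Il10 had at most 3 counts in every library and were not tested.

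**Figure D5:**
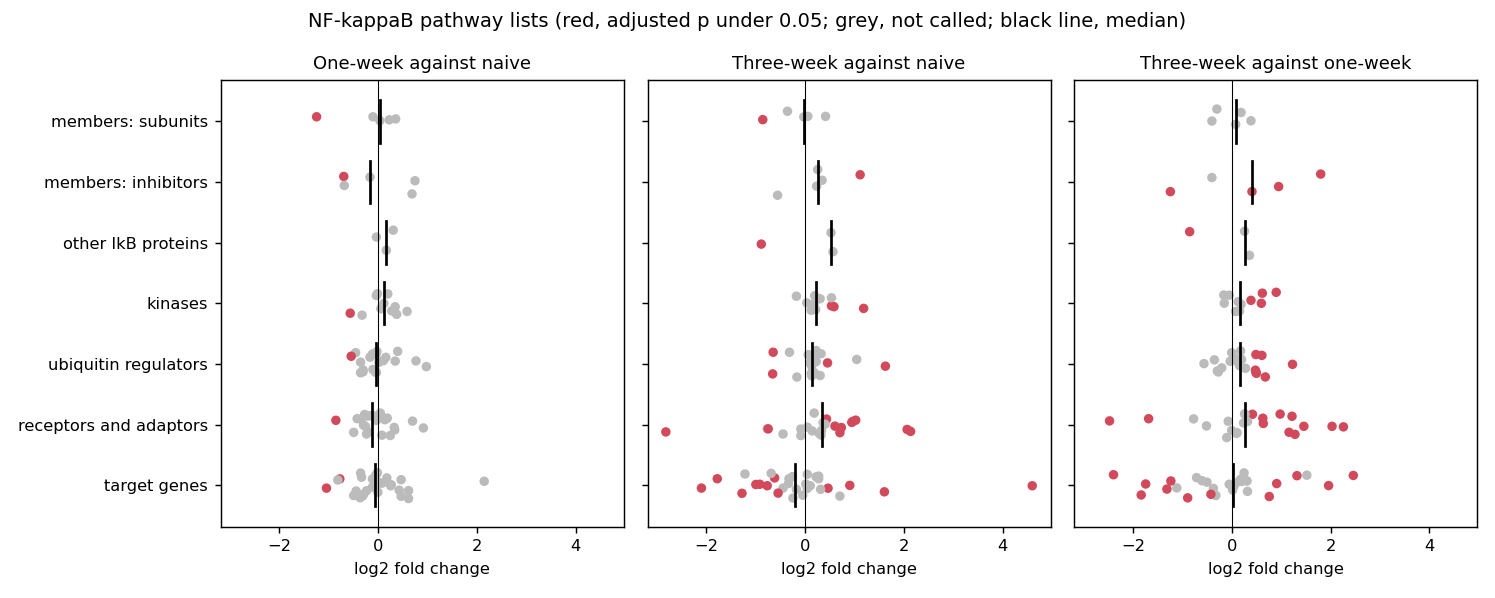
The horizontal axis gives log2 fold changes in each of the 3 comparisons, each point being a tested gene of the list named on the left, red for an adjusted p under 0.05, with a black line at the median, and Nos2 is left out of points and medians because its naive and 1-week libraries held 0 counts. Red points among receptors and adaptors lie mostly right of 0 at 3 weeks (9 higher and 2 lower against naive mice), and those among target genes lie on both sides.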

How the data were processed

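Per the labels and the study's methods, RNA of bead-selected Ly6G+ BM cells was sequenced as single-end total RNA libraries, 2 for each of the 3 groups. What the authors deposited are RSEM's expected counts of each gene against mm10, written as whole numbers and not scaled between libraries. The submitters' processing notes name Bowtie2, RSEM 1.2.31 and DESeq2, and the strand setting is not given in the sources used here. Nothing in the labels says that libraries came from separate mice beyond their numbering, so that p-values measure the spread between these libraries. The legend of the study's expression data counts more samples per group than the labels, and 6 libraries were used here.

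Symbols, positions and exon lengths came from GENCODE M21 (GRCm38), which named 37570 of the 38887 identifiers. Promoter sequences came from the RefSeq table of GRCm38.p6, matched by symbol. Counts were filtered by filterByExpr, which left 12259 genes, scaled by TMM and compared in edgeR (version 4.0.16, under R 4.3.3) by its quasi-likelihood F test, with the 6 libraries in a single model. P-values were adjusted over all tested genes by the Benjamini-Hochberg method, and genes under 0.05 were called. Log2 CPM used a prior count of 2. DESeq2 1.42.0, other scalings and filters, a block for the replicate number and each library left out in turn were tried as alternatives. The same settings were applied to the other pathway lists after the data had been seen. The test was also tried on simulated data, in which 200 genes were changed 2-fold. It recovered 60% to 64.5% of them, depending on the comparison. A gene that was not called is therefore not shown to be unchanged.

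The 10 genes and all lists were chosen with earlier results of these data known. All 10 genes are named, with up to 4 genes per pathway list and comparison by smallest adjusted p, of which only some are named, and the most alike pathway gene of each. Depth was 11994158 to 14127919 counts per library. RPKM values, pathway scores and the study's other experiments were not used here.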

Additional observations from a re-analysis of the deposited data

Results flagged for a closer look

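In 4 of the 10 genes the change from naive mice differed between 3 weeks and 1 week, by the test of the difference itself, which is the comparison of the 3-week with the 1-week libraries in edgeR. In that comparison 22.5% of all tested genes were called. The naive libraries drop out of this difference. On the log2 scale the 3-week minus 1-week value was 0.95 for Nfkbia, -1.24 for Nfkbie, 0.41 for Nfkbiz and 1.80 for Bcl3. For Nfkbia and Bcl3 it was past the threshold in 14 of 14 alternative settings, for Nfkbie in 12 and for Nfkbiz in 10. With 2 libraries in a group, single libraries that stand apart from their group could not be tested for.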

How the results depend on the processing

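Over 30 log2 fold changes of the 10 genes and 14 settings, 381 of 420 values kept direction and side of the threshold, 18 lost the call, 9 gained one and 12 changed sign, all 12 for differences that were not called. At a threshold of 0.01 the genes called among the 10 were 0 at 1 week and 1 at 3 weeks against naive mice. Library size in place of TMM gave 1 at 1 week, and DESeq2 gave 1 at 3 weeks, whether fitted to every library or to the 2 groups alone. Leaving out a library gave 0 to 3 at 1 week, 1 to 2 at 3 weeks and 2 to 4 between the weeks. Bcl3 alone stayed called at 3 weeks against naive mice without the naive library numbered 1 or the 3-week library numbered 1. Between the weeks, only Nfkbia and Bcl3 stayed called without the 1-week library numbered 2. The causes were not tested.

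Ranges with a library left out, for the values that changed sign, were -0.21 to 0.26 for Nfkb2 and -0.23 to 0.04 for Rela at 1 week, -0.17 to 0.13 for Rela, -0.11 to 0.23 for Relb and -0.02 to 0.66 for Tnfaip3 at 3 weeks, and -0.0022 to 0.72 for Rel between the weeks. Sign changes against naive mice at 1 week were -0.08 (without naive replicate 2) and -0.21 (without 1-week replicate 2) for Nfkb2, and 0.04 (without naive replicate 2) for Rela. At 3 weeks they were 0.13 (without naive replicate 2) and 0.02 (without 3-week replicate 1) for Rela, -0.08 (library size), -0.09 (without naive replicate 1) and -0.11 (without 3-week replicate 2) for Relb, and -0.02 (without 3-week replicate 2) for Tnfaip3. Between the weeks they were -0.01 for Nfkb1 and -0.12 for Rela (library size), and -0.0022 for Rel (without 3-week replicate 2).

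Library size in place of TMM moved the median log2 fold change of all genes from 0.03 to -0.11 at 3 weeks against naive mice and from -0.02 to -0.22 between the weeks. It changed the split of calls over all genes from 518 higher and 461 lower to 575 and 263 at 1 week, from 1471 and 1155 to 890 and 1675 at 3 weeks, and from 1586 and 1173 to 856 and 2136 between the weeks. Relb was then called lower between the weeks, with -0.50. Over all genes, 979 were called at 1 week, against 274 at a threshold of 0.01, 1680 at 0.1, 1537 with no filter and 147 to 1145 with a library left out. At 3 weeks 2626 became 1339 at 0.01, and 1362 to 2392 with a library left out. Between the weeks 2759 became 1481 at 0.01, and 1502 to 2725 with a library left out. The labels tie same-numbered libraries to no shared mouse, litter or batch, and deviations of same-numbered libraries correlated by 0.0101 to 0.0379. A replicate block left the counts among the 10 genes at 2, 2 and 4. For 36 called values of named pathway genes and 14 settings, 439 of 504 stayed called and 65 did not, with 0 sign changes. Chuk at 3 weeks against naive mice stayed called in 9 of them, and Tank and Map3k7 at 1 week in 9 and 10. Over these settings the genes called between the weeks ran from 1 to 4 for kinases, 1 to 8 for ubiquitin regulators, 10 to 14 for receptors and adaptors and 8 to 16 for target genes, and at 3 weeks against naive mice from 1 to 3, 0 to 4, 7 to 11 and 6 to 15. Genes under 200 counts, such as Rel and Nfkbie, carry the widest errors, and 2 libraries in a group limit all tests.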
